A study of Saccharomyces cerevisiae with 2 samples.

Results

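The tRNA genes that contain an intron were described in a pair of libraries that measured RNA crosslinked to Bud22 in Saccharomyces cerevisiae. They were taken from the tRNA class of both count tables by anticodon, for phenylalanine tF(GAA), isoleucine tI(UAU), lysine tK(UUU), the leucine families tL(CAA) and tL(UAG), proline tP(UGG), the serine families tS(CGA) and tS(GCU), tryptophan tW(CCA) and tyrosine tY(GUA), together with the copies that carry a gene name, such as SUP4 for tyrosine or SUF9 for proline. Mitochondrial rows were left out. This gave 60 genes in 10 families, of 274 cytosolic tRNA genes in 41 families and 2635 named features seen in either library.

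Bud22 acts in the nucleolus, in the assembly of small ribosomal subunits, and the method, crosslinking and analysis of cDNA (CRAC), sequences the RNA that stays attached to a purified, tagged protein after UV irradiation. The tagged library came from cells with Bud22-HIS-TEV-proteinA and the control from untagged W303 wildtype cells, which measures the background of the purification. Both cultures were moved from rich to uracil-free medium that held 4-thiouracil, a uracil analogue that crosslinks under long-wave UV. They stayed there for 4 h and were then exposed to light of 365 nm over 30 min. The control's growth text names the tagged strain, whereas its title, source name and genotype say wild type, and the files do not settle this. With 1 library in each group there is neither a replicate error nor a p-value, and each comparison is between these libraries.

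In yeast, every gene of these families carries a short intron just after the anticodon. The intron is cut out by the Sen endonuclease at the surface of mitochondria, the exons are joined by the ligase Trl1, and Tpt1 removes the phosphate left at the junction. Splicing therefore follows transcription and end trimming in the nucleus and export to the cytoplasm, for which Los1 is the main exportin. The count tables give reads per gene, so precursor and spliced tRNA cannot be told apart in any value below.

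Copies of a tRNA share reads, since a read counts at each copy it was mapped to. Each family was therefore represented by 1 copy, the one with the most sense reads over both libraries, and its share was taken of the sum over the 41 families counted in this way. That sum was 17492 reads with Bud22 against 6103 for the control. Next to reads, the tables give a number that from its values counts the distinct read entries behind them. Their sum was 325 with Bud22 against 1033 for the control, which is 53.8 and 5.91 reads per entry. The intervals below are exact 95% counting intervals. Reads of 1 entry are not independent molecules, so read intervals are too narrow, and entries are given beside them. To be called higher or lower, a family needed 10 counts or more in the libraries together, a share that differed at least 2-fold and an interval that excludes 1.

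Of the 10 intron-containing families, tyrosine tRNA was higher with Bud22, and 6 families had no read there although all 10 were present in the control. Those 6 were tL(UAG), tP(UGG), tK(UUU), tW(CCA), tF(GAA) and tS(GCU). The remaining tI(UAU), tL(CAA) and tS(CGA) were present in both libraries. By reads, 8 families had enough counts, of which 1 was higher, 5 were lower and 2 were neither. Among all 36 measured tRNA families, 5.56% were called higher and 66.7% lower by reads. By entries, 6 families had enough counts, with 1 higher, 3 lower and 2 neither, where 3.45% of 29 measured families were higher and 27.6% lower. The share of intron-containing families called lower by reads, 5 of 8, was thus near that of tRNA families in general.

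**Figure D1:**
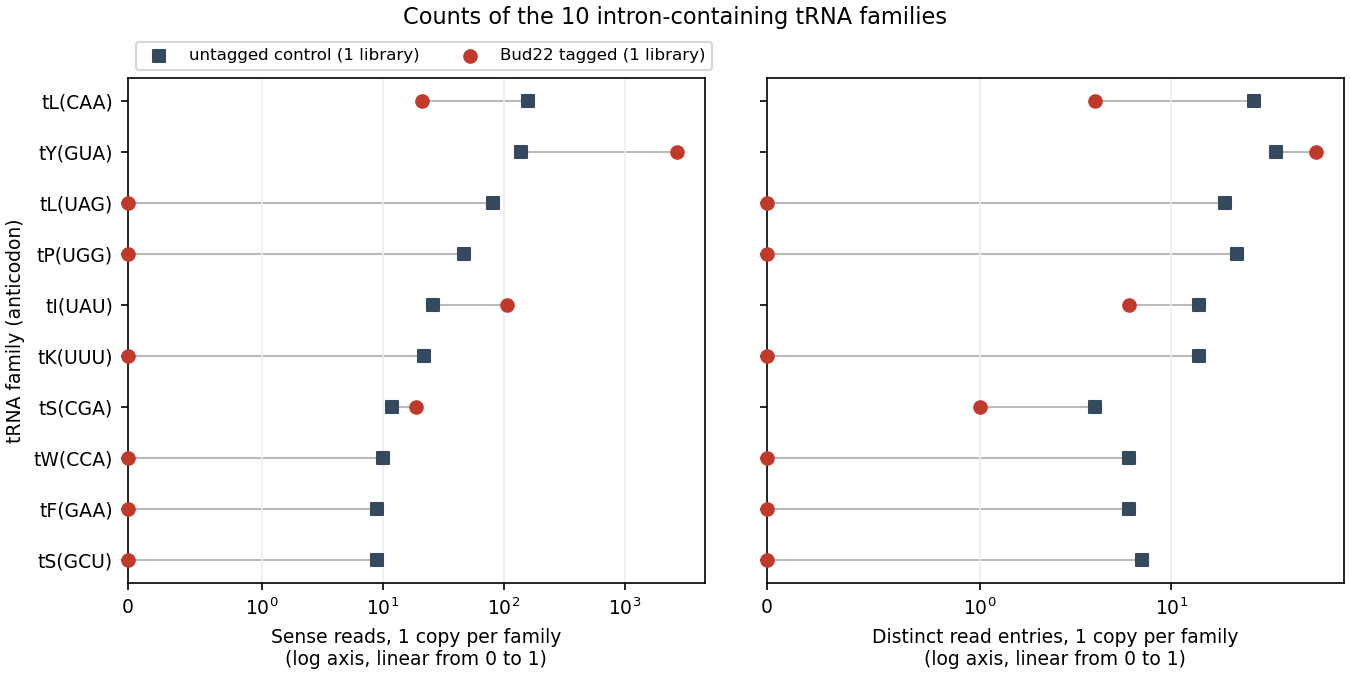
Counts of the 10 families in each library, by sense reads (left) and distinct entries (right), for 1 copy per family on a log axis that is linear from 0 to 1. Squares stand for the control library and circles for the Bud22 library. The tyrosine family moves from 139 to 2721 reads, and 6 families lie at 0 with Bud22.

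Tyrosine tRNA has 8 genes, SUP2 to SUP8 and SUP11, named for the ochre suppressors that arise in them, and its intron is needed for pseudouridine formation in the anticodon. Its copy SUP4 had 2721 reads with Bud22 against 139 in the control. That was 15.6% of the 1-copy tRNA total against 2.28%, a ratio of 6.83 (interval 5.76 to 8.16). By entries SUP4 had 57 against 35, a ratio of 5.18 (3.34 to 8.13). An entry stood for 47.7 reads with Bud22 and for 3.97 in the control. At the control's share, the Bud22 library would hold 11.0 tyrosine entries. Tyrosine had the highest ratio of the 41 families by both counts. In number of reads it was second to tI(AAU), an intronless isoleucine tRNA with 11132 reads.

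The tyrosine copies differed little among themselves. With Bud22 each of the 8 had 2721 reads. Control counts ranged from 136 reads at SUP5, SUP6, SUP8 and SUP11 to 139 at SUP2 and SUP4. Entries with Bud22 numbered 57 at SUP4 and SUP6 and 55 at the other 6 copies, for the same number of reads. In the control entries ranged from 33 to 35. Such near-equal counts are what reads matching every copy would give, so the 8 rows are not taken as separate measurements.

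Isoleucine tI(UAU), which reads the AUA codon, was the only other intron-containing family with more reads for its depth in the Bud22 library, and its intervals include 1. The copy tI(UAU)L had 106 reads against 26, a ratio of 1.42 (0.919 to 2.28). By entries it had 6 against 14, with a ratio of 1.36 (0.429 to 3.77). Its other copy, tI(UAU)D, had 54 reads against 22 and 4 entries against 11. With that copy in place of the first, and each other family also at its middle copy, the read ratio was 0.783 (0.469 to 1.35). Over all named features tI(UAU)D had a ratio of 1.51 by reads (0.905 to 2.60) and 2.28 by entries (0.530 to 7.70). The direction of the tI(UAU) read ratio therefore changed with the copies and the total used.

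Leucine tL(CAA), whose 10 genes include SUP53, SUP54 and SUP56, had the most control reads of the intron-containing families, was second to tyrosine there by entries, and was low with Bud22. SUP54 had 21 reads against 158, which is 0.120% of the tRNA total against 2.59%. The ratio was 0.0464 (0.0279 to 0.0734), and the family was called lower by reads. By entries it had 4 against 27, a ratio of 0.471 (0.120 to 1.35), and was not called. Unlike tyrosine, it had about as many reads per entry with Bud22 (5.25) as in the control (5.85). At SUP53, SUP56, tL(CAA)D and tL(CAA)L the control had 157 reads and 26 entries, and all 10 copies had 21 reads and 4 entries with Bud22.

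Serine tS(CGA) is encoded by the single gene SUP61, which is essential because no other tRNA reads the UCG codon well. It had 19 reads against 12, a ratio of 0.552 (0.255 to 1.25). These rested on 1 entry with Bud22 and 4 in the control. The intronless serine genes SUP16, SUP17 and SUP19 of tS(UGA) also had exactly 19 reads and 1 entry each with Bud22, against 10 reads and 7 entries in the control. Whether those 19 reads are the same ones, counted at both families, cannot be seen in the tables.

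The 6 families without a read in the Bud22 library had between 9 and 81 reads in the control. Leucine tL(UAG) was the largest of them, with 81 control reads on 19 entries at tL(UAG)J and tL(UAG)L2 and 77 on 15 at tL(UAG)L1. Proline tP(UGG) had 47 reads on 22 entries at SUF9. Lysine tK(UUU) had 22 reads on 14 entries at tK(UUU)D and 5 more of its 7 copies. Tryptophan tW(CCA) had 10 reads on 6 entries, phenylalanine tF(GAA) 9 reads on 6 entries, and serine tS(GCU) 9 reads on 7 entries.

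Against a floor of 3 reads with Bud22, which is 0.0172% of the 1-copy tRNA total, the share of tL(UAG) was at least 77.4-fold lower, that of tP(UGG) at least 44.9-fold and that of tK(UUU) at least 21.0-fold. For tW(CCA) it was at least 9.55-fold lower, and for tF(GAA) and tS(GCU) at least 8.60-fold. Families tF(GAA) and tS(GCU) missed the minimum of 10 counts and were not called. These folds set the control's reads, without their counting error, against the floor. The read intervals, which include that error, reach smaller folds, with upper limits of the ratio at 0.0163, 0.0285 and 0.0637 for the first 3, 0.156 for tW(CCA) and 0.177 for tF(GAA) and tS(GCU). All of these bounds hold for reads and not for molecules, since 3 reads are far fewer than the mean behind 1 entry with Bud22.

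Entries set a looser limit on the same families. At the control's share, the 325 Bud22 entries would include 6.92 of tP(UGG), 5.98 of tL(UAG) and 4.40 of tK(UUU). With 0 seen, the upper limits of the entry ratio were 0.580, 0.681 and 0.958, so these 3 were called lower by entries as well. For tS(GCU) 2.20 entries would be present, and for tF(GAA) and tW(CCA) 1.89 each. Their upper limits were 2.21, 2.70 and 2.70, so this depth could not show a lower share.

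**Figure D2:**
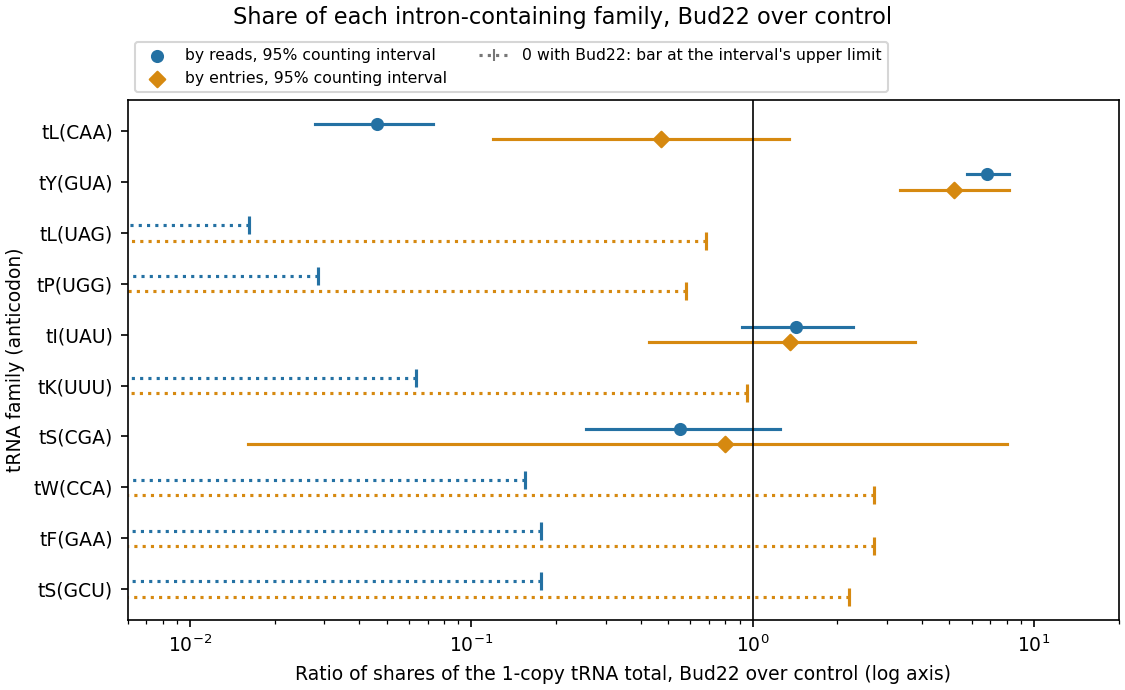
Ratio of each family's share of the 1-copy tRNA total, Bud22 over control, on a log axis, by reads (circles) and entries (diamonds) with 95% counting intervals. Families at 0 with Bud22 are drawn as a dotted line up to the interval's upper limit. Only tY(GUA) lies above 1 with both intervals, and only tL(UAG), tP(UGG) and tK(UUU) lie below 1 with both.

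Copies within the families without Bud22 reads mostly had equal or near-equal counts. All copies were equal in 2 of the 9 families with more than 1 copy, tW(CCA) with 6 copies from tW(CCA)G1 to tW(CCA)P and tS(GCU) with tS(GCU)F, tS(GCU)L and tS(GCU)O. In tP(UGG), TRN1, SUF7 and SUF11 had 45 control reads, SUF8 had 46 and SUF9 47, while tP(UGG)O3 had 22 reads on 13 entries. In tK(UUU) the copy tK(UUU)G2 stood apart with 14 reads on 10 entries. In tF(GAA) 8 copies, tF(GAA)B among them, had 9 reads and the copies tF(GAA)D and tF(GAA)N had 7. No member copy had an antisense read in either library.

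Over all named features, counted copy by copy, 47 of the 60 genes had at least 10 reads over both libraries. Of these, 9 were higher with Bud22, 36 were lower and 2, SUP61 and tI(UAU)D, were neither, where 23.7% of 494 measured features were higher and 49.4% lower. The 9 higher genes were the 8 tyrosine copies and tI(UAU)L, which had a ratio of 2.51 on this scale (1.62 to 4.02). By entries 40 genes were measured, 8 were higher and 0 lower, against 17.5% of 342 features higher and 12.6% lower. The 8 were again the tyrosine copies. Because copies share reads, these counts weigh a family by its number of genes.

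Summed over the 10 families, intron-containing tRNA took a higher share of tRNA with Bud22, and this sum was tyrosine tRNA almost throughout. The families held 2867 reads against 513, which is 16.4% of the 1-copy total (15.8 to 16.9) against 8.41% (7.72 to 9.13). The ratio was 1.95 (1.77 to 2.15). By entries they held 68 of 325 against 154 of 1033, a ratio of 1.40 (1.04 to 1.88). Tyrosine made up 94.9% of the list's reads with Bud22 and 27.1% in the control, and 83.8% and 22.7% of its entries. Without tyrosine, which was singled out with its values known, the other 9 families held 146 reads against 374, a ratio of 0.136 (0.112 to 0.165). By entries these 9 held 11 against 119, a ratio of 0.294 (0.143 to 0.545).

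**Figure D3:**
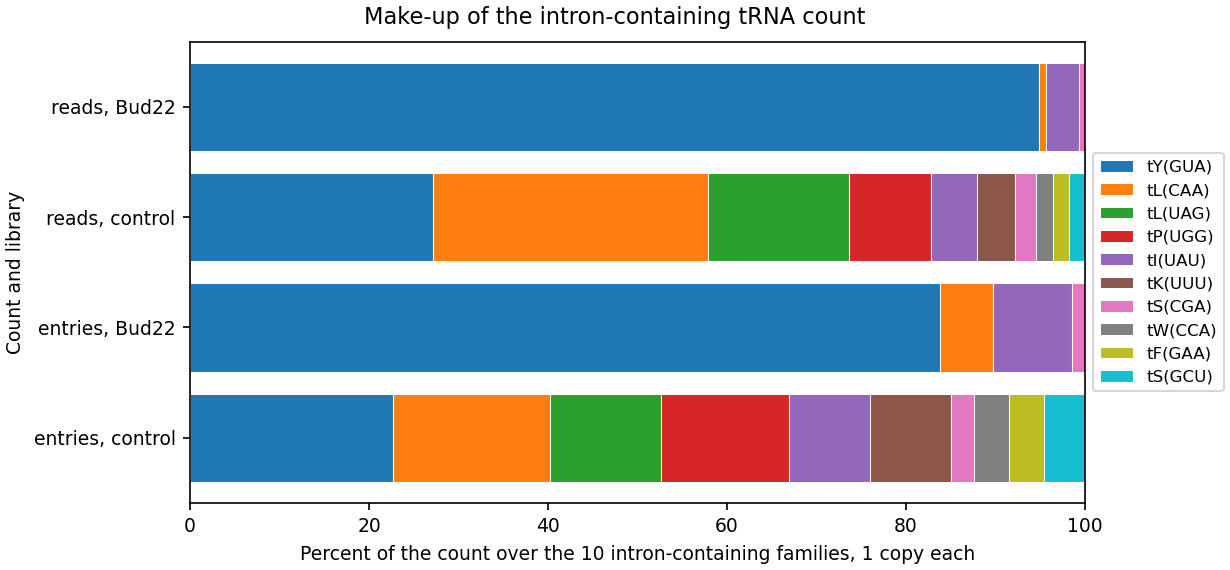
Percent of the count over the 10 intron-containing families that each family held, for reads and entries in each library, with 1 copy per family. Tyrosine tY(GUA) fills 94.9% of the reads with Bud22 and 27.1% in the control, where tL(CAA) is the largest at 30.8%.

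The 31 intronless families also had most of their reads in 1 family, in both libraries. They held 14625 reads against 5590. The ratio was 0.913 (0.885 to 0.942) by reads, and by entries it was 0.929 (0.806 to 1.07). The intronless tI(AAU) alone took 63.6% of the 1-copy tRNA total with Bud22 and 54.6% in the control. By entries it took less, 36% with Bud22 and 21.6% in the control. Without it the other 30 held 19.97% against 37.0%, where reads gave a ratio of 0.540 (0.512 to 0.569) and entries one of 0.678 (0.561 to 0.815). Of the intronless families 9 of 31 had no read with Bud22, compared with 6 of 10 with an intron. The median read ratio was 0 over intron-containing families, 0.322 over intronless ones and 0.139 over all 41. The median entry ratios were 0, 0.374 and 0.341.

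Among intronless families with at least 10 reads, 6 tied at the lowest read ratio, with no read with Bud22. Those with the most control reads were glycine tG(UCC), with 0 against 41, and histidine tH(GUG), with 0 against 31. The highest ratios were those of threonine tT(AGU), with 185 against 40 and a ratio of 1.61 (1.14 to 2.33), and serine tS(AGA). The serine family had 307 against 47, a ratio of 2.28 (1.67 to 3.17). Only 3 entries lay behind this with Bud22, and the entry ratio was 0.341 (0.0663 to 1.10), so its read and entry directions were opposite. No intronless family was called higher by entries, of 23 measured.

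**Figure D4:**
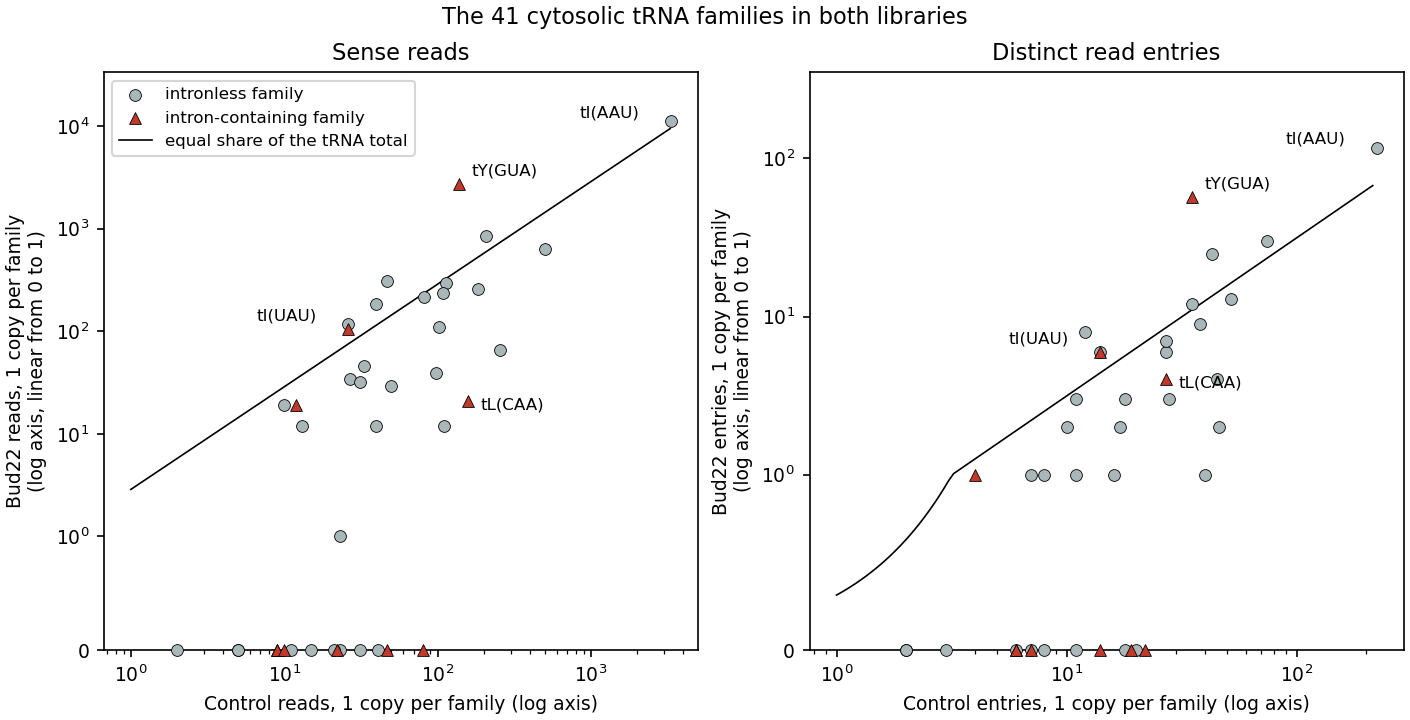
Counts of all 41 families in the control (x axis) and the Bud22 library (y axis), by reads (left) and entries (right), on log axes that for Bud22 are linear from 0 to 1. The line marks an equal share of the tRNA total. Among intron-containing families (triangles) tY(GUA) lies farthest above the line and 6 lie at 0, along with 9 intronless families (circles).

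For 5 amino acids, yeast has both intron-containing and intronless families, which allows a comparison within an amino acid. By reads, intron-containing leucine families (tL(CAA) and tL(UAG)) had 0.447 times the reads of the intronless tL(UAA) and tL(GAG) with Bud22 and 4.27 times in the control. The ratio of these quotients was 0.105 (0.0552 to 0.196). By entries the quotients were 2 (4 against 2) and 2.42 (46 against 19), with a ratio of 0.826 (0.108 to 9.88). The read difference in leucine thus had no counterpart that 6 entries could show.

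For serine, tS(CGA) and tS(GCU) together had 19 reads and the intronless tS(AGA) and tS(UGA) 326 with Bud22, against 21 and 57 in the control. The ratio of quotients was 0.158 (0.0756 to 0.332) by reads and 0.795 (0.0148 to 9.28) by entries. With Bud22 the serine counts rested on 1 entry against 4, and tS(AGA) alone gave 307 of the 326 reads, on 3 entries. Whether the 19 reads of tS(CGA) are also counted on the intronless side, at tS(UGA), cannot be seen. In lysine, tK(UUU) had 0 reads and the intronless tK(CUU) 34 with Bud22, against 22 and 27 in the control. The upper limit of that ratio was 0.166 by reads and 7.22 by entries. Isoleucine had a ratio of 1.22 (0.787 to 1.96) by reads and 0.817 (0.251 to 2.34) by entries for tI(UAU) over tI(AAU). For proline neither tP(UGG) nor the intronless tP(AGG), which had 15 control reads, had a read with Bud22. By entries the interval included 1 in each of the 4 amino acids with a value.

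Grouped by the first base of the anticodon, which pairs with the third codon base, the 3 families with G had 2721 reads with Bud22 against 157 in the control. All 2721 belonged to tyrosine, and tF(GAA) and tS(GCU) had none. The 3 families with C had 40 reads against 180, and the 4 with U had 106 against 176. By entries these groups had 57 against 48, 5 against 37 and 6 against 69. As shares of the 1-copy total, the read ratios were 6.05 for G, 0.0775 for C and 0.210 for U. The entry ratios were 3.77, 0.430 and 0.276. Intronless families with G, C and U had read ratios of 0.353, 0.385 and 0.379 and entry ratios of 0.689, 0.623 and 0.449. Leucine and serine tRNAs share a long variable arm. The 4 intron-containing families of this kind had 40 reads against 260 and 5 entries against 57, and the 4 intronless ones had 373 against 113 and 6 against 54. As shares of the 1-copy total, their read ratios were 0.0537 (0.0375 to 0.0751) with an intron and 1.15 (0.931 to 1.43) without. The latter interval includes 1, and tS(AGA) alone gave 307 of those 373 reads, on 3 entries. Entry ratios lay close together, at 0.279 (0.0872 to 0.689) and 0.353 (0.124 to 0.820).

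The number of gene copies was set beside the counts of the families. Across the 10 families Spearman's rho between copies and control counts was 0.262 for reads and 0.483 for entries. Over all 41 families it was 0.476 and 0.559. With Bud22 rho was -0.132 over the 10 by reads and by entries, and 0.374 and 0.333 over all 41. There 6 of the 10 families and 15 of the 41 were tied at 0. The other 4 of the 10 had the same order by both counts, so their equal rho is not a second result. The points share a library, and copies are the listed genes of a family. For example tF(GAA), with 10 copies, had 9 control reads, and tL(UAG), with 3 copies, had 81.

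The mRNAs of tRNA splicing and maturation factors gave almost no reads. Of 6 splicing genes (the endonuclease subunits SEN2, SEN15, SEN34 and SEN54, the ligase TRL1 and the phosphotransferase TPT1) none had a read with Bud22. SEN54 had 12 reads on 3 entries in the control and TPT1 1 read. Of 18 genes for export and end processing, 6 had control reads and none had reads with Bud22. The largest was RPR1, the RNA of RNase P, which trims the 5′ leader, with 10 reads on 2 entries. Only SEN54 and RPR1 had enough reads for a call. Each was called lower by reads, as were 49.4% of all measured features. Set against the same floor of 3 reads, the fold was 6.50 or more for SEN54 and 5.42 or more for RPR1. Over all named features an entry stood for 36.5 reads with Bud22, so these folds hold for reads and not for molecules. Named features had 5920 entries with Bud22 against 37130 in the control. By entries both genes missed the minimum of 10 counts, so a lower share could not be shown.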

How the data were processed

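The authors counted reads on the sense and antisense strand of each annotated feature with pyReadCounters (Counters 1.2.1), per the file headers, and deposited these counts without normalization. A further column is headed as a number of reads. Its values never exceeded the strand sum and were read here as distinct entries, an inference. At the tyrosine genes the same reads gave 55 or 57 entries, so how an entry is defined is not known. For genome build, annotation release, alignment, trimming and duplicate removal, details were not given in the sources used here. Coordinates are therefore left out. The libraries held 317922 (Bud22) and 296925 (control) reads, and sense counts over named features came to 215982 and 132895.

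Genes named otherwise were placed in families by known identity, and all 17 such members are in the R64 gene table. Left out were 11 mitochondrial or unassigned tRNA rows, with 0 and 39 reads, and intergenic regions. Shares have exact Clopper-Pearson intervals and ratios of shares exact conditional binomial intervals (Python 3.11.15, SciPy 1.17.1). Ratios of quotients have the exact conditional interval of an odds ratio. The intervals for ratios of shares were tried on simulated independent reads over all named features. That simulation does not cover reads that share an entry, or the 1-copy tRNA total. Intervals and floors cover counting error only. Named were all 10 families with their representative, lowest and gene-named copies, intronless families of the same amino acids, and the 2 highest and 2 lowest intronless families by read ratio, with ties at 0 ordered by control reads. Where copies tied on reads, the one with more entries stood for the family, and the first by name where entries tied as well. For tyrosine this took SUP4, with 57 entries with Bud22, over SUP2, which had the same reads and 55 entries. Members and lists were chosen with earlier results of these data known. Alternatives covered the count, the copy, the denominator and the call rule.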

Additional observations from a re-analysis of the deposited data

How the results depend on the processing

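The higher share of the summed 10 families depended on tyrosine. Its ratio was 1.95 as reported, 1.40 by entries, 3.44 as a share of all named features, 2.89 of mapped reads and 2.43 with tI(AAU) left out of the total. For the 3.44, the families were counted at 1 copy, whereas the total counts shared tRNA reads at every copy. It turned to 0.136 for the list without tY(GUA), to 0.158 with tyrosine also out of the total, and to 0.282 with both tyrosine and tI(AAU) out. The 1 family called higher became 2 with shares of all named features or of mapped reads, which add tI(UAU), and 0 with tyrosine out of the total. With tI(AAU) out as well, 1 was higher, tI(UAU) at 2.95. The 5 called lower became 3 by entries and 3 with a minimum of 30 counts, and 7 with copies summed or with no minimum, which add tF(GAA) and tS(GCU). Copies share reads, so the sum counts the same reads several times, and both families pass the minimum there through repeated counts. Tyrosine was called higher in all 12 settings that kept it, with ratios from 5.18 to 12.0. In 14 settings, tL(UAG) and tP(UGG) were called lower in all, tK(UUU) and tL(CAA) in 13, and tW(CCA) in 12. These settings are not independent, since apart from the entry setting all used the same reads. Adding antisense reads changed nothing, as no member copy had any. In the entry setting tL(CAA) was not called. No setting joined entries with all named features. Compared in that way, 0 of the 40 measured member copies were lower. Upper limits were 1.14 for SUF9, 1.34 for tL(UAG)J and 1.89 for tK(UUU)D. With 1 library per group no library could be left out. No paired analysis was possible because each group has 1 library. Of the 6 families without Bud22 reads, those with 6 or 7 control entries could not be called lower by entries. On the 1-copy tRNA total, tK(UUU) with 14 could.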
